A study of Mus musculus with 19 samples.

Results

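The deletion of the CTCF sites named i4, i5 and ZRS was compared with wild type in mouse limb buds, by the contacts of chromatin along the locus of Shh, the gene for the secreted signal Sonic hedgehog. The comparison takes in 5 of the 19 samples of the study and 2 of its 9 contact maps, chosen by the names of the merged maps. The 2 samples with the deletion, called i4i5ZRS here, came from E10.5 limb buds of the G4 strain. The 3 wild type samples came from E10.5 limb buds of the C57BL/6 strain. G4 is a hybrid mouse embryonic stem cell line used for genome engineering. By the study's design the mutant samples are technical replicates and the wild type samples biological ones, and 2 of the 3 wild type titles carry the library number L12944. The labels give neither the number of embryos pooled, nor the number of mutant clones, nor the positions and sizes of the deleted sites. Each group was deposited as 1 merged map, so no spread between replicates could be had and no test was made.

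CTCF is a DNA-binding protein that stops cohesin as it extrudes chromatin loops, and pairs of CTCF sites often mark loop anchors and the borders of contact domains. The limb enhancer of Shh, the ZRS, lies far from the gene in an intron of Lmbr1, and it drives Shh in the posterior limb bud, where the signal sets the number and identity of digits. A large gene desert separates Shh from its neighbours on that side. Along the chromosome the genes run in the order Htr5a, Insig1, En2, Cnpy1, Rbm33, Shh, Rnf32, Lmbr1, Nom1, Mnx1, Ube3c and Dnajb6. This order is from a RefSeq table of another build, and it places no gene at a position here.

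Capture Hi-C joins DNA ends that lie close together in fixed nuclei, enriches the joined fragments of a chosen region and counts them as pairs. The maps cover chromosome 5 from 27800001 to 30600000 in the mm9 build, in 280 bins of 10 kb, with 1983686 contacts recovered in i4i5ZRS and 2862106 in wild type. Of 39340 possible bin pairs, 38529 were listed in i4i5ZRS and 38963 in wild type. Each map was scaled by itself: the level of a bin pair, observed over expected, is its balanced signal divided by the average for all pairs equally far apart. A log2 ratio is that of i4i5ZRS over wild type. Ranges in brackets are 95% intervals for counting error only, which is less than the error between animals. For levels and ratios they were computed from the summed contacts and carried over to mean levels, in which contacts have unequal weights. They are thus approximate. A difference is called beyond counting error where its interval leaves out 0, and rises and falls are differences in size between 2 maps, with no test. Positions are distances from the bin that holds most of the Shh promoter (28790001 to 28800000). The promoter is that bin and the one at -10 kb together. By the ZRS window 5 bins are meant, at 830 to 870 kb (29620001 to 29670000), which were placed from general knowledge of where the ZRS lies. The Shh domain spans the 93 bins between a lower border at -30 kb and an upper border at 910 kb, and its flanks are the 50 bins beyond each border.

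Genotype goes with strain, and the effects of the deletion and of the strain background cannot be told apart against the wild type map. Values against the G4 limb maps that lack the ZRSreg element or the Lmbr1 promoter are therefore given for part of the results. These are the classes of bin pairs, the blocks, the insulation and the counts of smoothed pairs, each defined below. No such values are given for the profiles and windows of the promoter, the ZRS window profile or the bins around the upper border. The part of strain in those finer readings was not tested. In 10 kb bins the deletion left no large gap in coverage. The coverage ratio of single bins against their neighbours was between -0.16 and 0.02 on the log2 scale from 830 to 880 kb, where the SD over 264 bins was 0.12. The tissue label cannot be checked against marker genes, because only DNA contacts were measured.

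Loss of the CTCF sites went with weaker contact between the upper end of the Shh domain and the stretch around and below Shh, and with stronger contact between the domain and the region above it. The gene's contact with the ZRS window was the class with the largest fall, at 3.51 (3.21 to 3.82, 506 contacts) in i4i5ZRS against 6.49 (6.17 to 6.82, 1574 contacts) in wild type limb, and the log2 ratio was -0.89 (-1.04 to -0.74). The promoter's contact with the 66 bins of the domain interior, from 100 to 750 kb, was 1.66 in i4i5ZRS and 1.68 in wild type (-0.02, -0.06 to 0.02). By the sign of the ratio alone 28 of these bins were higher and 38 lower. All counts of bins given for a class are by sign, not by interval. Within the domain the stretch from 400 to 490 kb was lower by a small amount (-0.12, -0.23 to -0.02), and that from 700 to 790 kb had a ratio of -0.10 with an interval that ends just below 0. Against the Lmbr1 promoter map the promoter's contact with the interior was lower (-0.087, -0.13 to -0.045), with 53 of 66 bins lower, and against the ZRSreg map the ratio was -0.013 (-0.058 to 0.031).

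The lower contact of the ZRS window was not limited to the promoter. With the lower flank, which begins below the lower border and does not hold the promoter bins, its contact was 1.29 (1.25 to 1.33) in i4i5ZRS against 1.95 (1.91 to 1.99) in wild type. That is a change of -33.7%, with 46 of 50 flank bins lower. With the interior the window stood at 1.27 against 1.43 in wild type (-0.18, -0.21 to -0.14), with 49 of 66 bins lower by sign. Beyond counting error 15 of the 30 bins from 100 to 390 kb were lower and 0 higher. From 400 to 750 kb 6 of 36 were lower and 3 higher. With the upper flank it stood at 0.857 against 0.717 in wild type (0.26, 0.22 to 0.30), with 45 of 50 bins higher.

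Averaged over its bins the domain moved the same way, by less on the lower side. Its contact with the upper flank was 0.892 in i4i5ZRS against 0.715 in wild type (0.32, 0.31 to 0.33), and 89 of the 93 domain bins were higher. Contact with the lower flank was 0.855 against 0.956 in wild type (-0.16, -0.17 to -0.15), with 64 of 93 bins lower by sign. This fall was uneven along the domain. The 10 bins from 600 to 690 kb had a median ratio of -0.07 with the lower flank, and 0 of them were lower beyond counting error. From 820 to 880 kb the median was -0.58, and all 7 bins were lower. Contact within the domain was 1.33 against 1.43 in wild type (-0.10, -0.11 to -0.09). Pairs that skip the domain, joining the lower flank to the upper one, were at 1.24 against 1.32 in wild type (-0.08, -0.10 to -0.06).

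**Figure D1:**
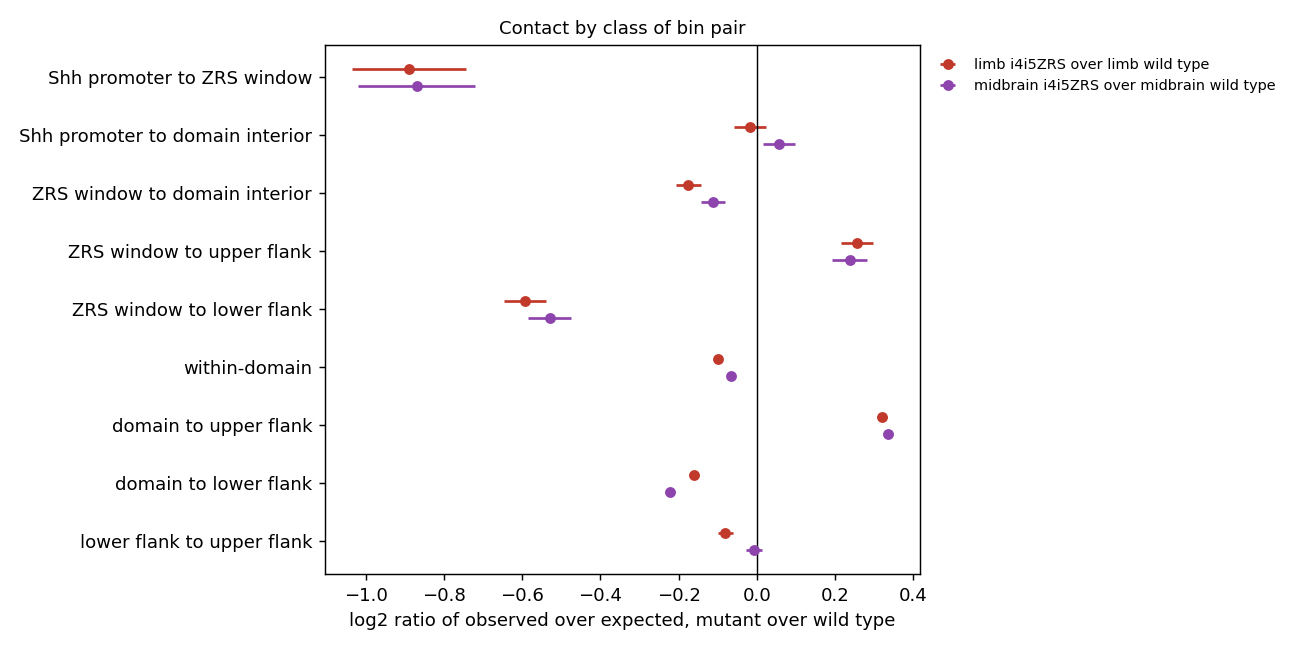
Log2 ratio of observed over expected (horizontal axis) for 9 classes of bin pairs, with points for limb i4i5ZRS over limb wild type above points for midbrain i4i5ZRS over midbrain wild type; bars are 95% counting intervals. The ratio from the Shh promoter to the ZRS window is the lowest, at -0.89 in limb and -0.87 in midbrain, and that from the domain to the upper flank the highest, at 0.32 and 0.34.

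Along the promoter's profile the change turned from loss to gain within 100 kb. Of 275 bins beyond 20 kb of the promoter, 18 were lower beyond counting error (6.55%) and 39 higher (14.2%). All 7 bins from 820 to 880 kb were among the lower ones, and so were the 2 bins at 800 and 810 kb. Of the 14 bins from 910 to 1040 kb, 11 were higher beyond counting error and the other 3 had positive ratios too. From 1050 to 1300 kb 15 of 26 bins were higher beyond counting error and none lower.

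The bins were read singly from 780 to 920 kb. The fall began at 790 kb (3.90 in i4i5ZRS against 5.18 in wild type) after a bin at 780 kb with 4.49 in i4i5ZRS and 4.71 in wild type (-0.07, -0.36 to 0.22). At 800 kb the level was 5.23 against 6.39 in wild type, and at 810 kb 6.16 against 7.88, the peak of the wild type profile beyond 500 kb. These 3 bins had log2 ratios of -0.41, -0.29 and -0.35. The step came at the next bin, 820 kb, with 3.74 against 7.69 in wild type (-1.04, -1.30 to -0.79). At 830 kb the level was 3.56 against 7.54 in wild type (-1.08), at 840 kb 3.89 against 5.61 (-0.53) and at 850 kb 4.28 against 6.38 (-0.57). At 860 kb it was 3.37 against 6.66 in wild type (-0.98). The largest fall of these 15 bins lay at 870 kb (29660001 to 29670000), the last bin of the ZRS window, with 2.42 against 6.27 in wild type (-1.37, -1.88 to -0.90), on 45 contacts in i4i5ZRS and 196 in wild type. Inside the ZRS window the loss was thus uneven, with ratios of -0.53 and -0.57 at 840 and 850 kb between ratios of -0.98 to -1.37 at the other 3 bins.

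Past the window the loss ended within 2 bins. At 880 kb the promoter stood at 2.69 against 3.98 in wild type (-0.56, -1.02 to -0.12), at 890 kb at 3.31 against 3.07 (0.11, -0.26 to 0.47) and at 900 kb at 4.24 against 4.42 (-0.06, -0.38 to 0.26). At the upper border bin, 910 kb, it stood at 6.34 against 4.27 in wild type (0.57, 0.22 to 0.92), and at 920 kb at 6.08 against 3.28 (0.89, 0.63 to 1.15). In i4i5ZRS these border bins were higher than every bin from 820 to 900 kb, while in wild type all bins from 820 to 870 kb were higher than the border bins. The order of the contacts around the end of the domain was thus turned round relative to wild type limb. These bins were not read against the G4 limb maps.

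The highest bin beyond 500 kb lay at 1010 kb (29800001 to 29810000) in i4i5ZRS, at 7.98 against 5.42 in wild type (0.56, 0.30 to 0.82). In wild type it lay at 810 kb. Read in windows of 100 kb, which were chosen after values were seen, the promoter's level at 900 to 990 kb was 4.34 in i4i5ZRS against 2.99 in wild type (0.54, 0.43 to 0.64). At 1100 to 1190 kb it was 2.33 against 1.46 in wild type (0.68, 0.52 to 0.85). At 1600 to 1690 kb it was 1.52 against 0.797 in wild type (0.94, 0.66 to 1.21), on 230 and 213 contacts. The gain above the border therefore reached far beyond the bins next to it, although at 1700 to 1790 kb the interval took in 0 (0.19, -0.17 to 0.54). For midbrain i4i5ZRS over midbrain wild type the windows from 1300 to 1590 kb gave 0.20, 0.28 and 0.05, with intervals that took in 0. At 1600 to 1690 kb the midbrain ratio was 0.53 (0.23 to 0.84). On the lower side of Shh none of the 8 windows from -900 to -110 kb differed beyond counting error, with log2 ratios between -0.11 and 0.10. Nearest the gene, from -100 to -10 kb without the bins within 20 kb, the ratio was 0.11 (0.01 to 0.21). Contacts beyond 1000 kb made up 14.8% (14.4% to 15.3%) of the promoter's signal from 20 kb on in i4i5ZRS, against 10.7% (10.4% to 11.0%) in wild type.

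**Figure D2:**
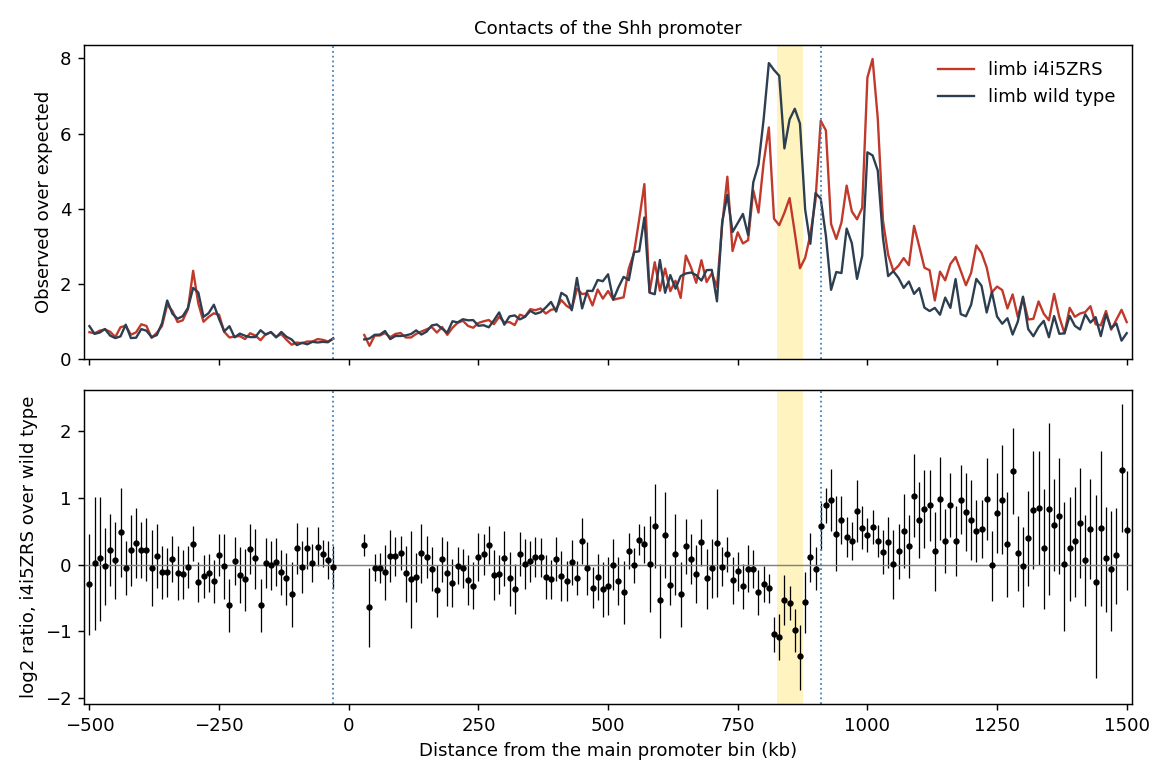
Contacts of the Shh promoter by distance from the main promoter bin in kb: observed over expected in limb i4i5ZRS and limb wild type (top) and their log2 ratio with 95% counting intervals (bottom); the yellow band is the ZRS window and the dotted lines are the borders at -30 and 910 kb. All bins from 820 to 880 kb are lower in i4i5ZRS, and those from 910 kb to 1040 kb have positive ratios.

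Seen from the ZRS window, the loss was centred on the promoter's side of the domain and crossed the lower border without a step. Its profile from -500 to 750 kb, a scan chosen after values were seen, held 126 bins. Of these 64 were lower beyond counting error (50.8%) and 3 higher (2.38%). By the same rule all 10 bins from -100 to -10 kb were lower, with a median log2 ratio of -0.77, and 18 of 20 bins from -300 to -110 kb, with a median of -0.67. From -500 to -310 kb 10 of 20 were lower (median -0.51), from 0 to 90 kb 5 of 10 (-0.48) and from 100 to 390 kb 15 of 30 (-0.28). From 400 to 750 kb 6 of 36 bins were lower and 3 higher, with a median of -0.08. The 6 lower bins lay between 400 and 510 kb, with ratios from -0.35 to -0.30. The 3 higher bins lay nearer the window, at 720 kb (0.22), 730 kb (0.20) and 750 kb (0.26, 0.09 to 0.43). The median near 0 thus took in changes of both signs.

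The strongest partners of the window were the bins next to the lower border in both maps. At -20 kb the level was 3.59 in i4i5ZRS against 7.48 in wild type (-1.06, -1.45 to -0.69), on 76 and 253 contacts. At -10 kb, the smaller part of the promoter, it was 3.54 against 7.45 in wild type (-1.07, -1.30 to -0.85). At 0 kb, the larger part, it was 3.47 against 5.53 in wild type (-0.67, -0.87 to -0.48). In i4i5ZRS the 3 levels lay between 3.47 and 3.59, while in wild type those at -20 and -10 kb were higher than that at the main promoter bin. At the lower border bin itself, -30 kb, the level was 3.39 against 5.77 in wild type (-0.77, -1.20 to -0.34). The largest fall in the profile lay below the border, at -60 kb (28730001 to 28740000), with 1.96 against 4.22 in wild type (-1.11, -1.43 to -0.80). Further falls of near that size, at -350 kb (-0.93, -1.48 to -0.41) and -320 kb (-0.91, -1.39 to -0.45), lay far below it. They rested on only 41 and 51 contacts in i4i5ZRS.

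**Figure D3:**
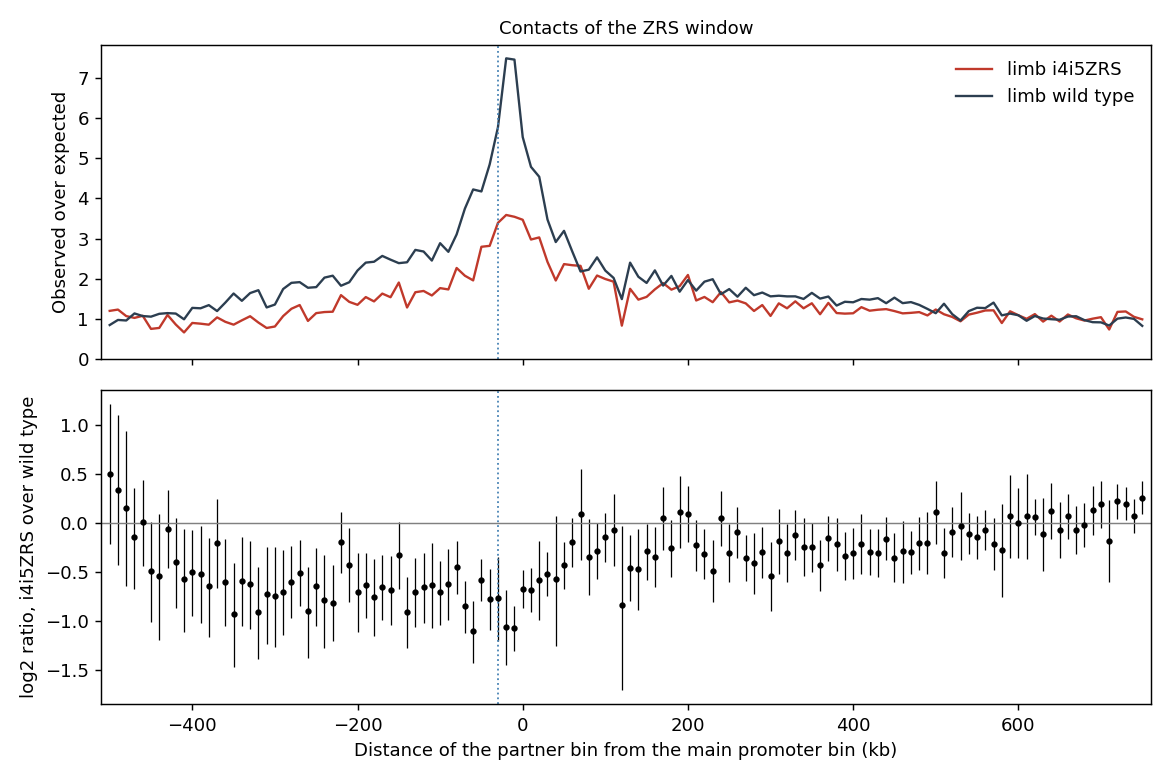
Contacts of the ZRS window by the distance of the partner bin from the main promoter bin in kb: observed over expected in limb i4i5ZRS and limb wild type (top) and their log2 ratio with 95% counting intervals (bottom); the dotted line at -30 kb is the lower border. Ratios are below 0 at all bins from -100 to -10 kb. From 400 kb on the median is -0.08, with 6 bins lower and 3 higher beyond counting error.

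Taking each bin around the upper end of the domain in turn, and averaging over its partners, placed the change for 3 kinds of partner. This reading was also chosen after values were seen. With the lower flank the bins from 600 to 690 kb had ratios from -0.14 to 0.06. The fall built up from 700 kb on and was deepest at 870 kb, with 1.27 in i4i5ZRS against 2.12 in wild type (-0.73, -0.88 to -0.59), and at 880 kb, with 1.05 against 1.75 (-0.73, -0.88 to -0.58). At 890 kb the ratio was -0.41 (-0.53 to -0.29) and at 900 kb -0.51 (-0.63 to -0.40). From 910 to 990 kb it was between -0.31 and -0.15, and at 1000 kb it was again lower, at -0.41 (-0.51 to -0.31).

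With the domain interior the same bins changed sign. The ratio was -0.26 (-0.32 to -0.21) at 820 kb and -0.17 (-0.26 to -0.08) at 880 kb. At 890 kb it was 0.09 (0.01 to 0.16), at the border bin 0.39 (0.29 to 0.49) and at 940 kb 0.53 (0.41 to 0.64), where the level was 1.16 in i4i5ZRS against 0.803 in wild type. The turn from loss to gain relative to wild type limb thus lay between 880 and 890 kb, below the border bin. With the upper flank the order was the other way round. The ratio was 0.45 (0.34 to 0.56) at 830 kb and 0.18 (0.08 to 0.28) at 870 kb, then -0.16 (-0.26 to -0.05) at 880 kb and -0.18 (-0.26 to -0.10) at 890 kb. In i4i5ZRS the bins up to 870 kb therefore had more contact with the region above, and those from 890 kb on more contact with the domain interior.

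**Figure D4:**
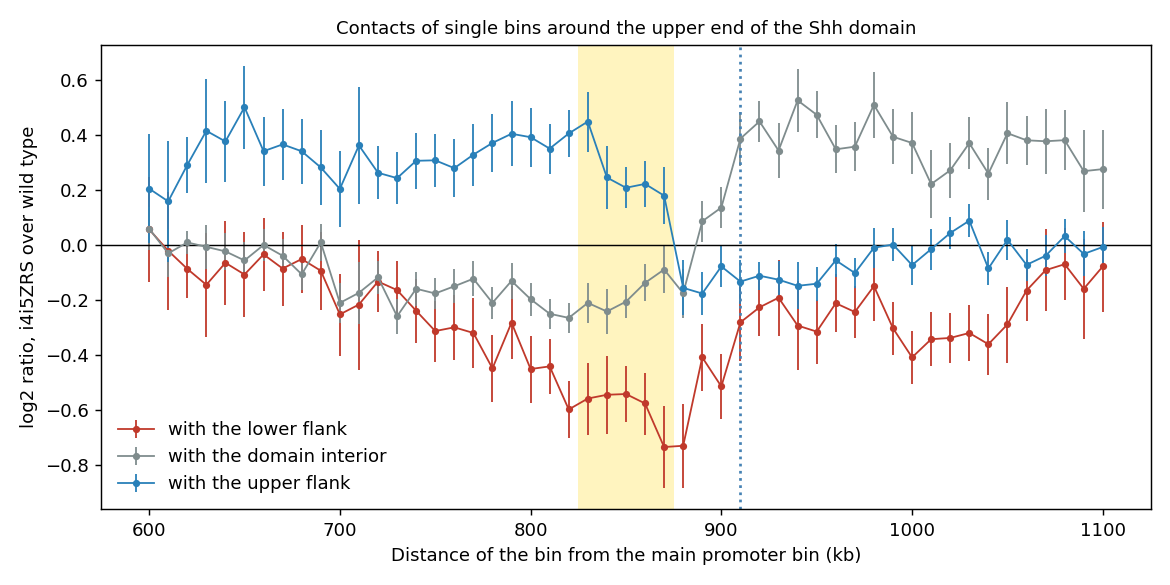
Log2 ratio of single 10 kb bins with the lower flank, the domain interior and the upper flank, by the distance of the bin from the main promoter bin in kb; bars are 95% counting intervals, the yellow band is the ZRS window and the dotted line the upper border. The ratio with the lower flank is lowest at 870 and 880 kb (-0.73), that with the interior turns positive at 890 kb and that with the upper flank turns negative at 880 kb.

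Over the whole region the change was gathered in few blocks. Of 325 pairs of 100 kb windows, 14 were higher by over 1.3-fold beyond counting error (4.31%) and 9 were lower (2.77%), and the median log2 ratio of all 325 was 0.01. Of the 9 lower blocks 5 had the window from 800 to 890 kb as their upper partner, and 8 had a lower partner below the promoter. Only 1 lay within the domain. All 14 higher blocks had an upper partner at 900 kb or more, and none lay within the domain.

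The lowest block joined the windows that start at -100 and 800 kb, at 2.73 in i4i5ZRS against 4.38 in wild type (-0.68, -0.74 to -0.62). The windows starting at -200, -300 and -400 kb gave -0.63, -0.63 and -0.65 with the same partner. The next window down, at -500 kb, gave -0.14 (-0.25 to -0.03). Below it the windows at -600, -700 and -800 kb gave -0.20 (-0.35 to -0.05), -0.29 (-0.40 to -0.17) and -0.21 (-0.33 to -0.09). The window at -900 kb gave -0.01 (-0.16 to 0.14). The ratio at -700 kb was -0.39 against the ZRSreg map and -0.43 against the Lmbr1 promoter map. Going into the domain the ratio with that partner was -0.41 (-0.46 to -0.35) for the window at 0 kb, -0.26 at 100 kb and 0.05 at 600 kb. Contact of 800 to 890 kb was thus lowest relative to wild type from -400 to -10 kb, with smaller falls down to -800 kb and up into the domain. The other 4 lower blocks joined the windows at -400 and -300 kb to those at 900 and 1000 kb, with ratios from -0.48 to -0.38. The window pair at -300 and 700 kb (-0.37) fell just short of 1.3-fold.

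Among the higher blocks the first joined the windows at 500 and 900 kb, at 0.823 in i4i5ZRS against 0.575 in wild type (0.52, 0.44 to 0.59). The windows at 600 and 700 kb gave 0.46 each with that partner. The window at 500 kb gave 0.41 with that at 1000 kb. Further up, the window at 1100 kb gave 0.47 with that at 200 kb and 0.42 with that at 300 kb. These blocks join the Shh domain to bins above the upper border. Beyond Lmbr1 on that side lie Nom1 and then Mnx1, which encodes a homeobox factor of motor neurons. A second group joined the window from -100 to -10 kb, which holds the lower border, to the windows at 1200 kb (1.91 against 1.37 in wild type, 0.49, 0.40 to 0.57), 1500 kb (0.47) and 1600 kb (0.41). The block of 0 and 1600 kb gave 0.46 (0.30 to 0.62). In midbrain its ratio was 0.11 (-0.06 to 0.28). Against the ZRSreg and Lmbr1 promoter maps it was 0.31 and 0.30, short of 1.3-fold. The block of -100 and 1600 kb gave 0.28 and 0.42 against these maps, and that of -100 and 1500 kb 0.50 and 0.39.

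**Figure D5:**
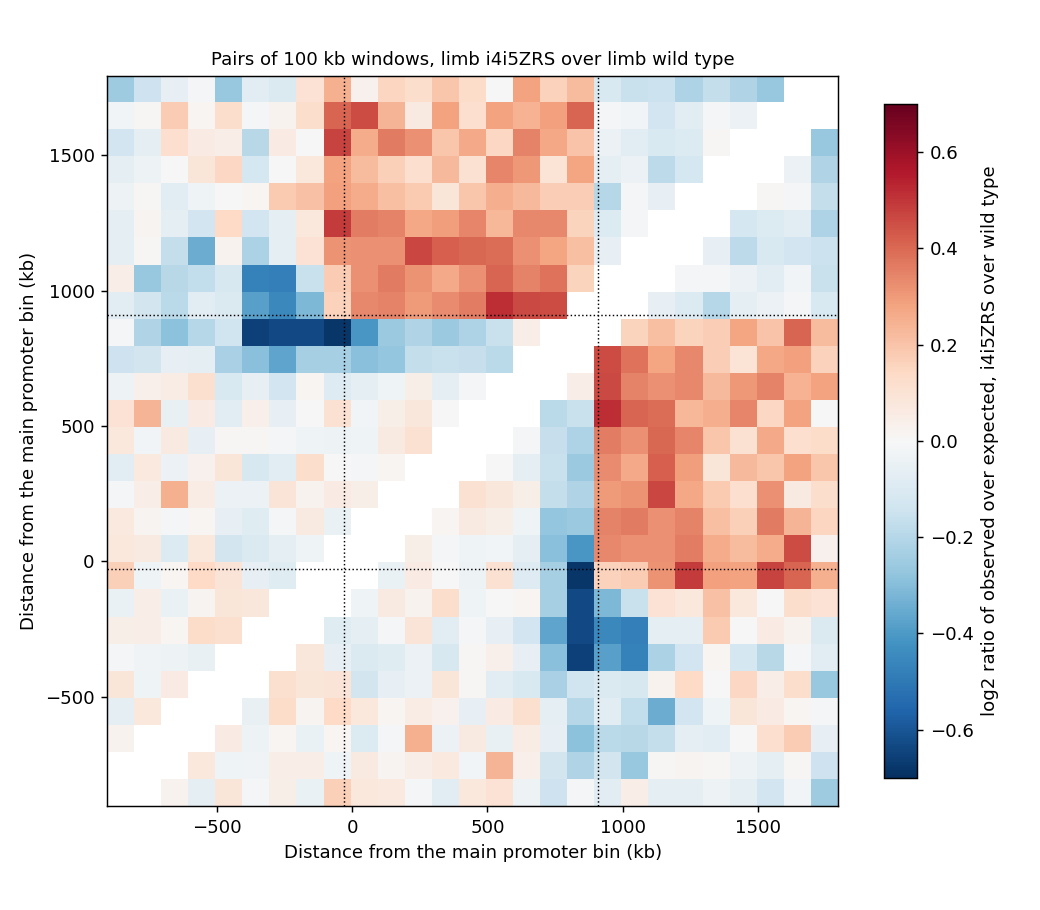
Log2 ratio of observed over expected for 325 pairs of 100 kb windows, limb i4i5ZRS over limb wild type, in colour (blue below 0, red above) against the distance of each window from the main promoter bin in kb on both axes; dotted lines are the borders at -30 and 910 kb. The blue row at 800 to 890 kb runs from the windows at -400 to 0 kb, where its ratios are between -0.68 and -0.41.

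Bin pairs smoothed over squares of 5 by 5 bins were read at finer scale. Of 35402 pairs at 100 kb or more with 25 or more contacts in each map, 304 were higher by over 1.5-fold (0.859%) and 354 lower (1.00%). Of 8227 pairs that joined the domain to bins above it 251 were higher and 0 lower, by size and with no test. Of 8791 pairs that joined bins below the domain to it 245 were lower and 0 higher. Within the domain 37 of 3570 pairs were lower and 0 higher. Pairs that skip the domain held calls both ways, with 53 higher and 72 lower of 8163. Of 550 pairs between -400 to 90 kb and 800 to 900 kb 268 were lower (48.7%), with a median log2 ratio of -0.58.

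The 10 largest falls and rises were taken among pairs kept at least 50 kb apart in either bin. Close neighbours of a listed pair are thus left out. The pair with the largest fall joined the bins at -330 and 880 kb, at 0.750 in i4i5ZRS against 1.54 in wild type (-1.04, -1.27 to -0.82). The next joined those at -40 and 860 kb, at 2.68 against 5.12 in wild type (-0.93, -1.07 to -0.79). Further pairs among the 10 largest falls lay at -250 and 860 kb (-0.83), at -300 and 820 kb (-0.76) and at 10 and 840 kb (-0.75), the last at 3.19 against 5.36 in wild type. These 5 all end at 820 to 880 kb, and each rested on over 200 contacts in each map. The other 5 had their lower bin at -480 kb or below and held under 100 contacts in a map. The largest rise joined -20 and 1590 kb, at 1.66 in i4i5ZRS against 0.743 in wild type (1.16, 0.71 to 1.61), on 100 and 75 contacts. Better covered were the rises at -30 and 1190 kb, at 2.89 against 1.63 in wild type (0.83, 0.66 to 1.00), at -30 and 1310 kb (0.85, 0.62 to 1.08) and at 580 and 940 kb (0.80, 0.62 to 0.98). Of the 10 rises in this spaced list 5 had their lower bin between -40 and 0 kb, at the lower border or the promoter.

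Bins 1000 to 1040 kb above Shh changed in opposite directions with different partners. This stretch was chosen after values were seen, and no values against the G4 limb maps are given for it. With the promoter its level was 5.67 in i4i5ZRS against 4.28 in wild type (0.41, 0.28 to 0.53). With the stretch from -300 to -210 kb it was 2.39 against 3.44 in wild type (-0.52, -0.60 to -0.45). With that from -400 to -310 kb it was 1.90 against 2.94 in wild type (-0.63, -0.72 to -0.54). Between them, from -100 to -40 kb, the ratio was 0.06 (-0.06 to 0.18). So a contact that skipped the whole Shh domain in wild type was weaker in i4i5ZRS while the promoter's contact with the same bins was stronger. Limb i4i5, which keeps the CTCF site named ZRS and shares the wild type map, gave -0.14 (-0.21 to -0.07) and -0.17 (-0.25 to -0.09) for the 2 stretches and 0.30 (0.17 to 0.42) for the promoter. Midbrain i4i5ZRS over midbrain wild type gave -0.48 (-0.56 to -0.39), -0.36 (-0.46 to -0.27) and 0.43 (0.29 to 0.58).

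Insulation compares the signal that crosses a bin, read in a square of 10 by 10 bins, with the average of such squares in that map, on the log2 scale. Less negative values mean more contact across the bin. The largest rise lay below the border bin, not at it. Rises and falls are listed for bins at least 50 kb apart, and the squares of nearby bins overlap. At 880 kb it was -0.34 in i4i5ZRS against -0.72 in wild type, a difference of 0.38, where the SD of differences over 260 bins was 0.08. At 830 kb it was -0.14 against -0.43 in wild type (0.28) and at 780 kb -0.07 against -0.18 (0.12). The upper border bin stayed the minimum of its surroundings in both maps, at -0.62 in i4i5ZRS and -0.78 in wild type. Its difference of 0.16 was larger than that at 780 kb, and it is not listed because it lies within 50 kb of 880 kb. Against the Lmbr1 promoter map the difference at the upper border bin was -0.03, while at 880 and 830 kb it was 0.26 and 0.34. The lower border, next to Shh, was at -1.09 in i4i5ZRS and -1.04 in wild type, a difference within the SD over bins.

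The largest falls in insulation lay outside the domain, at 1680 kb (0.29 in i4i5ZRS against 0.49 in wild type, -0.21), 1630 kb (0.00 against 0.13, -0.13) and 1000 kb (0.07 against 0.17, -0.10). At 1680 and 1630 kb the differences elsewhere were close to 0. They were -0.02 and 0.00 in midbrain and between -0.02 and 0.00 against both G4 limb maps. At 1000 kb it was -0.09 in midbrain, -0.07 against the ZRSreg map and 0.04 against the Lmbr1 promoter map.

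The same deletion in midbrain, where the ZRS is not known to drive Shh, gave ratios of the same sign for all classes but the promoter with the domain interior. Its log2 ratios to midbrain wild type were -0.87 for the promoter with the ZRS window, -0.53 for the window with the lower flank, 0.24 for the window with the upper flank and 0.34 for the domain with the upper flank. For the lower flank with the upper flank the midbrain ratio was -0.007 (-0.027 to 0.014), an interval that takes in 0. The limb ratio for these pairs, which skip the domain, was -0.08 (-0.10 to -0.06). In midbrain 8 of the 325 blocks were lower (2.46%) and 18 higher (5.54%) by the same rule. Of the 9 lower blocks in limb 7 were also lower in midbrain (77.8% of the limb calls and 87.5% of the 8 midbrain calls). Of the 14 higher blocks 6 were also higher there (42.9%, or 33.3% of the 18 midbrain calls), and all 9 and all 14 had the same sign. Across the 325 blocks the log2 ratios of limb and midbrain had a Pearson correlation of 0.86 and a Spearman correlation of 0.80. The blocks are not independent, and the 2 comparisons share no samples but share the strain contrast. The promoter with the domain interior gave -0.02 (-0.06 to 0.02) in limb and 0.06 (0.02 to 0.10) in midbrain. The difference between tissues was not tested.

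Limb i4i5 over the same wild type map gave -1.33 (-1.52 to -1.15) for the promoter with the ZRS window. That was a larger fall than the -0.89 (-1.04 to -0.74) of i4i5ZRS, and the difference was not tested. It gave -0.68 for the window with the lower flank and 0.34 for the domain with the upper flank. The limb i4i5 map held fewer contacts, 1177173. The i4i5 and midbrain samples are also labelled E10.5. With the interior the promoter gave -0.02 in i4i5ZRS and -0.23 in i4i5. Both comparisons use the wild type limb map, so they are not independent.

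Against the G4 limb maps the sign held for all 9 classes. For the promoter with the domain interior the intervals against wild type and ZRSreg took in 0. The promoter with the ZRS window gave -1.01 against ZRSreg and -0.97 against the Lmbr1 promoter deletion. The window with the lower flank gave -0.62 and -0.65, and the domain with the upper flank 0.39 and 0.29. All 9 lower blocks stayed past 1.3-fold against ZRSreg and 8 of them against the Lmbr1 promoter deletion. Of the 14 higher blocks 11 and 8 did so, with the sign kept in all 14.

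The maps also differed in how much of their signal was local. Pairs below 50 kb held 52.2% of the signal in i4i5ZRS against 46.3% in wild type, and 50.0% and 52.0% in the ZRSreg and Lmbr1 promoter maps. The share of signal per separation was lower in i4i5ZRS from 50 to 1790 kb, by log2 ratios from -0.20 to -0.14, and scaling per separation removes this difference. When maps were scaled by their total signal instead, the median of all blocks was -0.15, and 0 blocks were higher and 27 lower past 1.3-fold. The rises above the domain are thus rises relative to other pairs of the same separation, and were 0.14 for the domain with the upper flank under total scaling. The part of local signal in the result was not tested.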

How the data were processed

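Maps of 2 limb groups (5 samples), with 7 further maps for context, were read as the signal per pair of 10 kb bins that the authors deposited, merged over samples, with mapping quality of at least 30 and KR balancing, per the names of the deposited files. Cutadapt 1.15, Bowtie2 2.3.4.1, Juicer, SAMtools and mm9 are named in the submitters' processing notes, without settings. Unlisted pairs were taken as 0. Whole contact counts were recovered from the balanced signal, 100% of them within 0.01 of a whole number. Observed over expected, insulation, blocks and smoothed pairs were computed with Python 3.11.15, numpy 2.4.6, scipy 1.17.1 and pandas 2.3.3, and tested on simulated maps. No molecular identifiers mark the read pairs, so intervals hold for counting only. Borders are the insulation minima of the mean of all 9 maps. Features named are Shh, the ZRS window and Lmbr1, promoter bins from 780 to 920 kb, the highest promoter bins, the borders, the 3 largest insulation rises and falls, and the 10 highest and lowest blocks and smoothed pairs, of which a selection is printed. Listed insulation bins and smoothed pairs were kept at least 50 kb apart, for pairs in either bin. The comparison, these lists and the settings were chosen with earlier results of these data known. Alternatives changed the scaling, balancing, depth, other map, windows and smoothing.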

Additional observations from a re-analysis of the deposited data

How the results depend on the processing

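Over 119 alternatives of 16 results, 59 values stayed within counting error, the SD over bins or 1.5 times the count, 59 moved further and 1 changed sign by more than that. Within that error the promoter with the interior also crossed 0, at 0.0080 with wild type thinned to the contacts of i4i5ZRS, and so did the lower border difference, at 0.021 against the ZRSreg map. With the median of non-zero pairs in place of the mean per separation the log2 ratio was -1.09 for the promoter with the ZRS window, -0.073 for the promoter with the interior, -0.23 and -0.66 for the window with the interior and the lower flank, and -0.15, 0.25 and -0.24 within the domain and for the domain with the upper and lower flank. Blocks higher and lower then numbered 8 and 13, and smoothed pairs 252 and 572. With maps scaled by total signal, which moved the median of all blocks to -0.15 against 0.01, the 9 classes in the order of the class plot were -1.07, -0.19, -0.28, 0.079, -0.76, -0.21, 0.14, -0.27 and -0.28, with 0 blocks higher and 27 lower and 67 smoothed pairs higher and 1117 lower.

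On counts without balancing the promoter with the interior was -0.11, the window with the interior -0.24, the domain with the upper flank 0.34 and the lower border difference -0.13, with 22 blocks and 529 smoothed pairs higher. Against the ZRSreg map the window with the upper flank was 0.32, the domain within itself -0.12, with the upper flank 0.39 and with the lower flank -0.19, and the flanks with each other -0.040, with 33 blocks and 728 smoothed pairs higher. Against the Lmbr1 promoter map the promoter with the interior was -0.087, the window with the interior -0.21 and with the lower flank -0.65, the domain within itself -0.13, with the upper flank 0.29 and with the lower flank -0.13, and the flanks -0.046. The upper border difference was -0.027 there, against 0.16 with wild type, and the cause was not tested.

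The promoter with the ZRS window was -0.67 from the main promoter bin alone, -0.62 with a window of 800 to 900 kb and -0.69 with 840 to 860 kb, and the window of 800 to 900 kb gave 0.16 with the upper flank. Flanks of 300 kb gave -0.68 for the window with the lower flank, 0.37 and -0.20 for the domain with the upper and lower flank, and -0.15 for the flanks. Within the domain separations of 100 kb or more gave -0.11. The share of promoter contacts differed by 3.00 points from the main bin alone and by 6.09 points beyond 900 kb, against 4.13 points. At 1.5-fold 0 blocks were higher and 4 lower. Smoothing by 3 or 9 bins gave 1071 or 77 pairs higher and 660 or 232 lower. No paired analysis was possible because the libraries of each group were merged before deposit, and for the same reason no replicate could be left out. Depth limits single bin pairs: 5 of the 10 listed falls and 3 of the 10 listed rises held under 100 contacts in a map.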
